A study of Homo sapiens with 6 samples.

Results

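The RNA levels of 10 Wnt signalling genes were followed in HaCaT, a line of immortalised human skin keratinocytes, after transfection of an siRNA against PSENEN. They were chosen by name as 5 ligands (WNT4, WNT5A, WNT7A, WNT7B, WNT10A), 2 receptors (FZD6, FZD7), 2 secreted proteins of the Dickkopf family (DKK1, DKK3) and the intracellular feedback gene AXIN2. The choice was made with earlier results of these data known. Among the 27988 genes with a named transcript in the data, 9 of these 10 had a value in at least 1 library, and 8 were abundant enough to be tested among 15647 genes. Each group held 3 libraries. One group received 100 pmol of an siRNA against PSENEN with a lipid reagent and the other a mismatch siRNA, and all cells grew in high glucose medium with fetal calf serum; a group given the reagent alone is not analysed here. RNA was taken at 48 h and 72 h, without a label saying which time each library came from. HaCaT is a single cell line, and nothing says whether the libraries of a group came from separate cultures, so p-values measure the spread between these libraries only. The PSENEN protein is one of the subunits of γ-secretase, which cleaves Notch receptors inside the membrane, and the comparison asked which pathways of keratinocytes differ when its RNA is lowered.

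Wnt ligands are secreted, lipid-modified glycoproteins that bind Frizzled receptors together with the coreceptors LRP5 and LRP6. In the β-catenin branch, binding disables the complex that marks β-catenin for destruction, so that β-catenin enters the nucleus and works with TCF factors on genes such as AXIN2, which in turn rebuilds the complex. Dickkopf-1 blocks the coreceptors from outside the cell. In skin, Wnt signals are known for hair follicle formation and for the upkeep of the basal layer of the epidermis.

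The level of a gene was the sum of TPM (an abundance of transcripts relative to all transcripts of the library, scaled for length and depth) over the assembled transcripts that carry its name. Because the assembler gives some reads to unnamed transcripts with an intron in common with a gene, a second level with those transcripts added is given for the members it moves and for the named pathway genes whose groups it alone separates. Differences are in log2(TPM + 1), PSENEN siRNA minus mismatch siRNA, with the standard error (SE) and the Benjamini-Hochberg adjusted p of limma over all genes tested. PSENEN itself had levels of 1.75, 2.08 and 1.496 TPM after its own siRNA, and of 6.58, 8.85 and 6.55 TPM after the mismatch siRNA, which leaves 24.2% (difference -1.58, SE 0.18, limma adjusted p = 0.0471; 0.110 to 0.155 when any one library is left out). Its locus overlaps other annotated genes, so its reads may be shared with them. Depth, estimated from coverage and FPKM, was 9.16 to 11.9 gigabases in the PSENEN siRNA libraries and 11.5 to 15.6 in the mismatch siRNA libraries. All 12 keratinocyte markers had a value, led by KRT5 and KRT14, with summed levels of 3818 to 4648 against 4137 to 8614 TPM by named transcripts. Of the 12, 7 had lower levels with groups that did not overlap, beside 13.7% of all genes tested. With assembled transcripts added it was 8 of the 12, beside 14.3%. By that measure KRT14 was at 1559, 1419 and 1442 TPM against 2610, 3913 and 4166 TPM. Fibroblast markers summed to 0.560 to 1.09 against 1.42 to 1.83 TPM, with COL1A1 and THY1 the most abundant and COL1A2, PDGFRA, PDGFRB and LUM without a value. Melanocyte markers (MITF and PMEL most abundant) summed to at most 0.545 TPM with MLANA, TYR, TYRP1 and DCT without a value, and immune markers (CD68 and CD14 alone) to 2.09 to 7.84 TPM with PTPRC without a value. The 13 mitochondrial transcripts summed to 25294 to 32660 against 25423 to 27100 TPM. All 13 had a positive difference (median 0.16), and 4 had higher levels with groups that did not overlap, beside 8.21% of all genes tested. The part that depth, cell state or these other markers had in the Wnt results was not tested, and in bulk RNA fewer cells of a kind and less RNA per cell cannot be told apart.

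The ligand genes WNT4 and WNT7A and the receptor gene FZD7 had lower levels in every PSENEN siRNA library than in any mismatch siRNA library, as did WNT7B by a narrow margin and by named transcripts only, and the antagonist gene DKK1 had higher levels in every one. The mean of WNT4 was 2.61-fold lower, that of WNT7A 2.04-fold lower, that of FZD7 1.51-fold lower and that of DKK1 1.85-fold higher. WNT10A and FZD6, the most abundant ligand and receptor, did not separate the groups. None of the 8 tested members passed an adjusted p of 0.05 in limma (smallest 0.125, for WNT4), where 0.409% of all genes tested passed (0.128% higher and 0.281% lower). At an unadjusted p of 0.05, 3 members were lower and 1 higher, beside 8.49% and 4.49% of all genes. The groups did not overlap for 4 members in the lower direction and 1 in the higher, beside 13.7% and 8.21% of all genes (21.9% in either direction). With assembled transcripts added, no member passed either, beside 0.493% of 16216 genes (0.148% higher and 0.345% lower). At an unadjusted p of 0.05 it was again 3 lower and 1 higher, beside 9.72% and 4.64% (14.4% in either direction), and the groups were apart for 3 lower and 1 higher member, beside 14.3% and 7.84% (22.2% in either direction). The median difference of the 8 members was -0.36, and that of all genes -0.04.

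**Figure D1:**
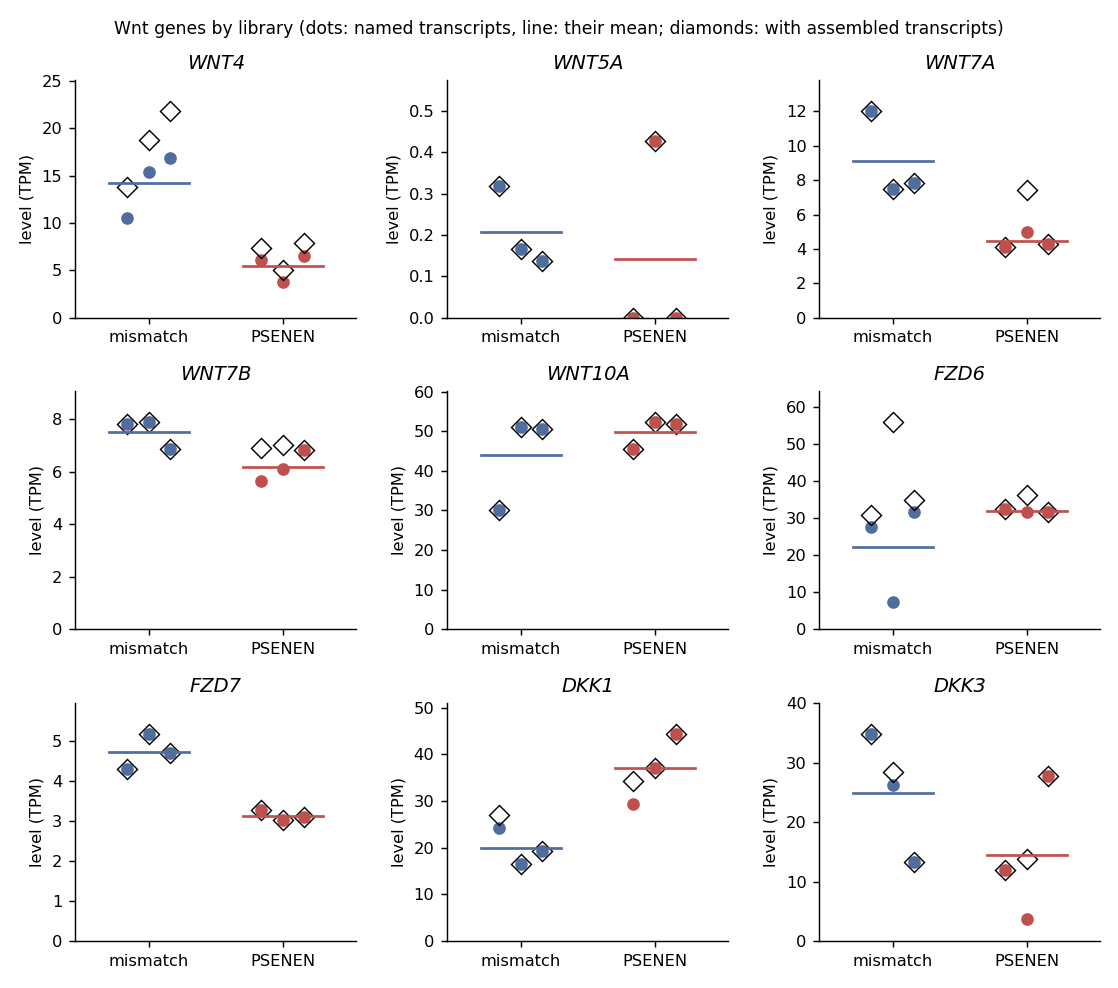
Level of the 9 members with a value, in TPM, 1 panel per gene and 1 point per library (libraries 1 to 3 from left to right); dots are named transcripts with a line at their mean, and diamonds add assembled transcripts that share an intron. WNT4, WNT7A and FZD7 sit lower and DKK1 higher in all PSENEN siRNA libraries, and the dot of FZD6 in mismatch siRNA library 2 lies far below its diamond (7.26 against 56.0 TPM).

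WNT4 (ENSG00000162552, GRCh38 chromosome 1, 22117305 to 22143969, minus strand) encodes a ligand known mainly from kidney and female reproductive tract development. Its levels were 6.14, 3.76 and 6.49 TPM in PSENEN siRNA libraries 1 to 3, against 10.5, 15.3 and 16.9 TPM in mismatch siRNA libraries 1 to 3. The highest PSENEN siRNA library thus stayed below the lowest mismatch siRNA library. The means were 5.46 ± 1.48 and 14.2 ± 3.30 TPM (SD, n = 3; difference -1.24, SE 0.25, limma adjusted p = 0.125), with a 95% interval of -1.86 to -0.62. With assembled transcripts added the levels were 7.38, 5.06 and 7.89 against 13.8, 18.8 and 21.8 TPM (difference -1.29, limma adjusted p = 0.0741), again without overlap. All of the named signal came from 1 transcript, ENST00000290167, whose 5 exons were covered 15.5 to 74.2 times per base on average. Exon coverage put on the TPM scale was lower in the PSENEN siRNA group at each of the 5 exons, with ratios of 0.432 to 0.646. Here and for the other members, exon values are parts of the transcript's TPM. They describe how it is spread over the exons and are not separate evidence of a difference. The groups did not overlap at exons 1, 3 and 5, and at exons 2 and 4 PSENEN siRNA library 1 lay within the mismatch siRNA range.

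WNT7A (ENSG00000154764, chromosome 3, 13816258 to 13880121, minus strand), a ligand known from limb patterning, was at 4.09, 4.97 and 4.30 TPM against 12.03, 7.46 and 7.81 TPM. The groups were apart, with mismatch siRNA library 1 well above the other two. The means were 4.45 ± 0.464 and 9.10 ± 2.54 TPM (SD, n = 3; difference -0.86, SE 0.21, limma adjusted p = 0.170; 95% interval -1.37 to -0.36). An assembled transcript of 2.46 TPM in PSENEN siRNA library 2 raised that library to 7.43 TPM, just under the lowest mismatch siRNA library at 7.46 TPM, and the difference became -0.70 (limma adjusted p = 0.308). Each of the 4 exons of ENST00000285018 was lower without overlap, at 0.398 to 0.521 of the mismatch siRNA mean. Its close relative WNT7B (ENSG00000188064, chromosome 22, 45920362 to 45977129, minus strand) was at 5.63, 6.10 and 6.83 TPM against 7.82, 7.87 and 6.88 TPM. The gap between the nearest libraries, 6.83 and 6.88 TPM, is small, and with assembled transcripts (6.89, 7.02 and 6.83 TPM against the same mismatch siRNA values) the groups overlapped. The difference was -0.25 (SE 0.14, limma adjusted p = 0.505; 95% interval -0.59 to 0.09), and at all 4 exons the groups overlapped. Of the 31-base words of WNT7A and WNT7B, 0.155% and 3.65% occur in another annotated gene.

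WNT10A (ENSG00000135925, chromosome 2, 218880363 to 218899581, plus strand), a ligand whose loss in people affects teeth, hair and sweat glands, was the most abundant of the 5. It was at 45.6, 52.2 and 51.8 TPM against 30.2, 51.0 and 50.6 TPM. The other 5 libraries were close together and mismatch siRNA library 1 was low. The means were 49.9 ± 3.70 and 43.9 ± 11.9 TPM (SD, n = 3; difference 0.22, SE 0.22, limma adjusted p = 0.710; 95% interval -0.32 to 0.75), and without mismatch siRNA library 1 the difference was -0.028. The first exon of its main transcript ENST00000258411 was unevenly covered, at 0.492, 11.1 and 11.2 against 0.407, 0.947 and 0.00191 on the TPM scale, so that 2 PSENEN siRNA libraries stood above the other 4. A short non-coding transcript of the gene, ENST00000483911, was at 5.96, 4.02 and 7.16 against 0.269, 0.190 and 4.45 TPM, with mismatch siRNA library 3 inside the PSENEN siRNA range. WNT5A (ENSG00000114251, chromosome 3, 55465715 to 55490539, minus strand), a ligand of the branches that do not use β-catenin, was very low: it was listed at 0 in PSENEN siRNA libraries 1 and 3, at 0.426 TPM in library 2, against 0.319, 0.165 and 0.138 TPM after the mismatch siRNA. It was not tested, and a value of 0 can be a failed estimate.

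Within the summed TPM of the 5 ligands, the makeup differed between the groups. WNT10A held 74.2%, 77.4% and 74.6% of the sum in PSENEN siRNA libraries and 49.6%, 62.3% and 61.5% in mismatch siRNA libraries. WNT4 held 10.00%, 5.57% and 9.35% against 17.3%, 18.7% and 20.5%. In both ligands the groups were apart, also with assembled transcripts added, where WNT10A held 71.3% to 73.1% against 47.1% to 59.8%. The sum itself was 61.5, 67.5 and 69.4 TPM against 60.9, 81.8 and 82.2 TPM, with overlap. Shares of one sum depend on each other, so these values are a description and were not tested.

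**Figure D2:**
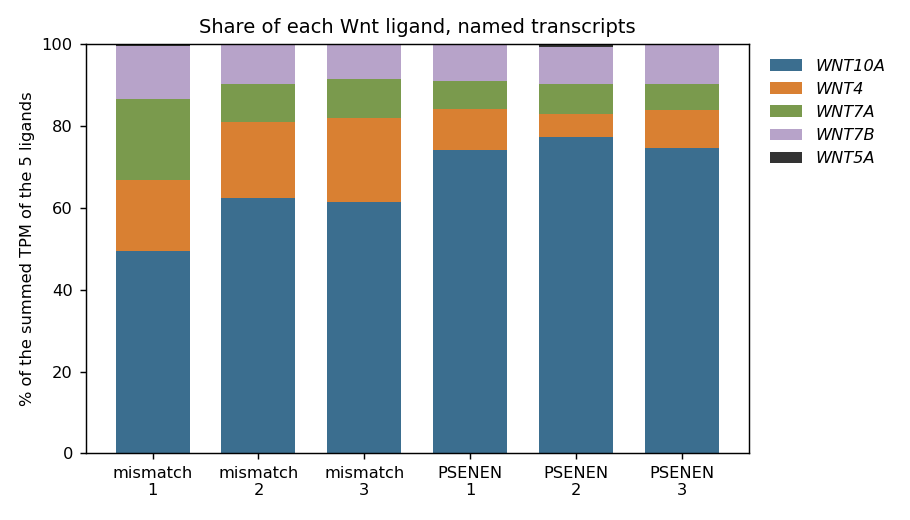
Share of each ligand gene in the summed TPM of the 5 ligands, in percent, 1 stacked bar per library from named transcripts. WNT10A takes 74.2% to 77.4% of the bar in PSENEN siRNA libraries and 49.6% to 62.3% in mismatch siRNA libraries, and the WNT4 band is narrower in the PSENEN siRNA libraries.

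FZD7 (ENSG00000155760, chromosome 2, 202034587 to 202038445, plus strand), a receptor gene with a single exon, was at 3.27, 3.02 and 3.10 TPM against 4.30, 5.18 and 4.70 TPM. The PSENEN siRNA libraries lay close together, and all were below the lowest mismatch siRNA library. The means were 3.13 ± 0.128 and 4.73 ± 0.441 TPM (SD, n = 3; difference -0.47, SE 0.14, limma adjusted p = 0.271; 95% interval -0.82 to -0.12). Of its 31-base words 3.08% occur in another gene, and the gene that shares the most is the related receptor gene FZD2. FZD6 (ENSG00000164930, chromosome 8, 103298433 to 103332866, plus strand), a receptor known for the orientation of hair, was at 32.5, 31.8 and 31.6 TPM against 27.6, 7.26 and 31.7 TPM. The low value of mismatch siRNA library 2 went with an unnamed transcript of 6 exons at 44.1 TPM that shares introns with FZD6 in that library, where the main transcript ENST00000358755 has no line. With such transcripts added, FZD6 was at 32.5, 36.3 and 31.6 against 30.9, 56.0 and 35.1 TPM, and its difference moved from 0.74 (SE 0.52, limma adjusted p = 0.594) to -0.23 (SE 0.22, limma adjusted p = 0.683). The direction for FZD6 therefore depends on how 1 library was assembled.

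DKK1 (ENSG00000107984, chromosome 10, 52314296 to 52318042, plus strand) encodes the secreted blocker of LRP5 and LRP6. It was at 29.5, 37.2 and 44.4 TPM against 24.2, 16.5 and 19.3 TPM. Every PSENEN siRNA library was above every mismatch siRNA library. The means were 37.0 ± 7.47 and 20.00 ± 3.87 TPM (SD, n = 3; difference 0.85, SE 0.20, limma adjusted p = 0.165; 95% interval 0.36 to 1.35), and the difference was 0.88 with assembled transcripts (limma adjusted p = 0.132). Both of its main transcripts were higher without overlap: the coding ENST00000373970 was at 19.1, 22.3 and 27.6 against 15.3, 9.75 and 8.81 TPM. The non-coding ENST00000467359 was at 10.4, 14.9 and 15.7 against 8.93, 6.48 and 8.76 TPM. All 4 exons of the coding transcript, as parts of its TPM, were higher without overlap, at 1.99 to 2.23 times the mismatch siRNA mean. No 31-base word of DKK1 occurs in another annotated gene.

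DKK3 (ENSG00000050165, chromosome 11, 11963106 to 12009769, minus strand), a family member whose action on Wnt signals is less settled, varied widely within both groups. It was at 12.004, 3.73 and 27.8 TPM against 34.8, 26.3 and 13.4 TPM (difference -0.995, SE 0.69, limma adjusted p = 0.590; 95% interval -2.67 to 0.68). In PSENEN siRNA library 2 an unnamed transcript of 6 exons held a further 10.00 TPM, and neither full-length coding transcript had a line there. With assembled transcripts added, that library was at 13.7 TPM and mismatch siRNA library 2 at 28.4 TPM, and the difference was -0.48 (SE 0.43, limma adjusted p = 0.657). By named transcripts it was -0.32 without PSENEN siRNA library 2 and -1.62 without PSENEN siRNA library 3. The share of its leading transcript ENST00000396505 ran from 0% to 87.2% over the 6 libraries. ENST00000326932, of almost the same length, was at 3.31, 0 and 0.883 TPM against 0, 17.9 and 6.83 TPM. The leading transcript's share was 85.7% ± 1.295 against 89.5% ± 6.36 for WNT10A and 62.3% ± 2.37 against 55.9% ± 9.05 for DKK1 (SD, n = 3; exact two-sided permutation p = 0.4 and 0.3, and 0.533 for both after adjustment over 4 genes; the smallest raw p possible is 0.1). Only for FZD6 did the shares not overlap, at 92.6% to 97.8% against 0%, 89.1% and 92.2% (exact permutation p = 0.1, adjusted 0.4), and with assembled transcripts in the denominator they overlapped.

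AXIN2 (ENSG00000168646, chromosome 17, 65528563 to 65561647, minus strand) was not detected. No transcript carried its name and no assembled transcript overlapped its position in any of the 6 libraries. AC004805.1, an annotated gene on the same strand that shares 24.7% of the AXIN2 words with it, was without a value too. No comparison of AXIN2 can be made, and these data hold no reading of it as a β-catenin target.

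**Figure D3:**
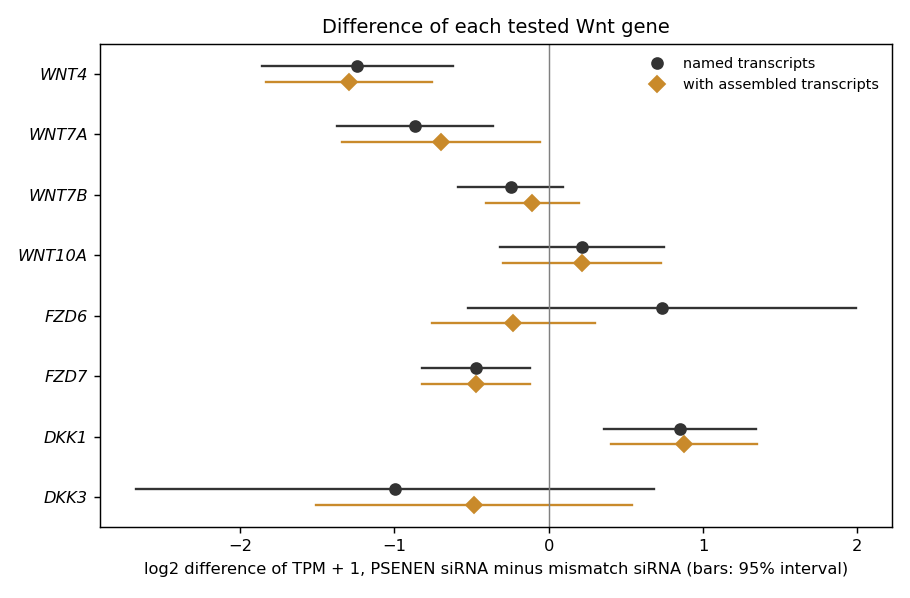
Difference in log2(TPM + 1) between PSENEN siRNA and mismatch siRNA for the 8 tested members, with 95% intervals from limma that are not adjusted for the number of genes; circles are named transcripts and diamonds add assembled transcripts. The intervals of WNT4, WNT7A, FZD7 and DKK1 do not reach 0 with either measure, those of WNT7B, WNT10A, FZD6 and DKK3 do, and FZD6 changes sign.

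**Figure D4:**
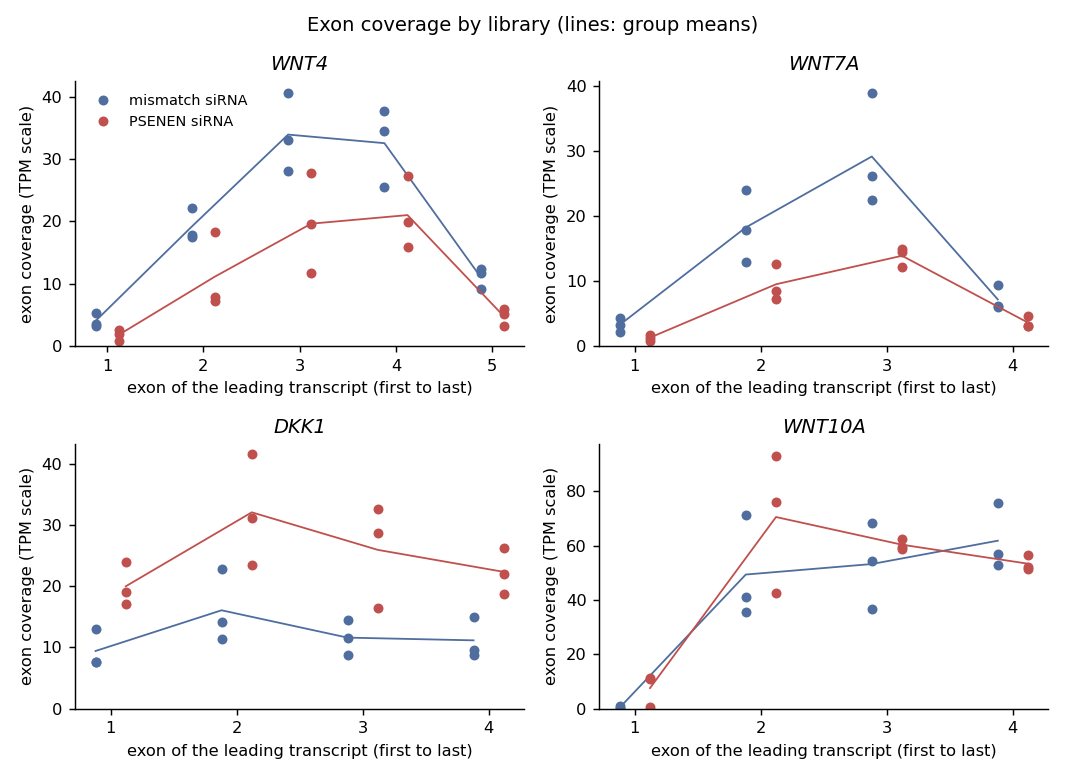
Coverage of each exon of the leading transcript of WNT4, WNT7A, DKK1 and WNT10A, scaled to the transcript's TPM, 1 dot per library and a line at each group mean. The mismatch siRNA mean lies above the PSENEN siRNA mean at every exon of WNT4 and WNT7A and below it at every exon of DKK1, and the lines cross for WNT10A. Exon values are parts of the transcript's TPM and not separate evidence.

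In the mismatch siRNA libraries, with assembled transcripts added, the order of levels was WNT10A (43.9 TPM), FZD6 (40.7), DKK3 (25.5), DKK1 (20.9), WNT4 (18.1), WNT7A (9.10), WNT7B (7.53), FZD7 (4.73) and WNT5A (0.207). The ranges of neighbours overlapped from WNT10A down to WNT4 and between WNT7A and WNT7B. They were apart between WNT4 and WNT7A, between WNT7B and FZD7 and between FZD7 and WNT5A.

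The promoters of the 3 members with the largest fold difference among those whose groups were apart are shown, to set the start regions of the lower ligands beside that of DKK1. Sequences are from RefSeq on GRCh38.p14, 250 bases before to 50 bases after the annotated start, 5′ to 3′ on the gene's strand, and 5 of the 10 members (WNT4, WNT5A, WNT7A, WNT10A and DKK1) had an entry. Capitals mark the TATA box word TATAAA.
WNT4 (chr1:22143048-22143347, minus strand): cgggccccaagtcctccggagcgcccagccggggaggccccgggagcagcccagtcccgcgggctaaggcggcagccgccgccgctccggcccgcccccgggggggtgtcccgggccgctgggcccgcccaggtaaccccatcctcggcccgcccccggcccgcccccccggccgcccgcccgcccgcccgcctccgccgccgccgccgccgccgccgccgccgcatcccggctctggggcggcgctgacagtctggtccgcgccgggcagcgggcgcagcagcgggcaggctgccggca
WNT7A (chr3:13880022-13880321, minus strand): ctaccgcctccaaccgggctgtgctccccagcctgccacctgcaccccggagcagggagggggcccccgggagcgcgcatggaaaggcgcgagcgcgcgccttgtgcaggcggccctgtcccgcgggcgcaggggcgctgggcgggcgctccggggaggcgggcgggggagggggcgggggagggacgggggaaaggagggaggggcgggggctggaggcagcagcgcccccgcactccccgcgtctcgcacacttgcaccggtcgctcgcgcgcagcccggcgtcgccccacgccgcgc
DKK1 (chr10:52314031-52314330, plus strand): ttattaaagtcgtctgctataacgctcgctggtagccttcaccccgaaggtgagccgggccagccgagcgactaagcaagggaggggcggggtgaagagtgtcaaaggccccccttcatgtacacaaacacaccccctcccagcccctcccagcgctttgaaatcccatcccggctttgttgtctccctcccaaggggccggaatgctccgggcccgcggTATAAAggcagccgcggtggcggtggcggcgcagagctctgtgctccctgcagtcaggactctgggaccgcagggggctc
The 2 ligand promoters are 85.7% and 80.3% G or C, and that of DKK1 is 63.7%. Of the ligands not shown, WNT10A is at 76.7%, and the 2 listed promoters of WNT5A are at 56.3% and 63.7%. TATAAA was found in DKK1 alone of the 5, starting 30 bases before the annotated start; 11.5% of 35116 promoters of this length hold it on either strand. Also searched on both strands were CTTTGAT, a form of the TCF site found in 2.62% of promoters, and TGGGAA, found in 24.0%. TGGGAA is the core of the site of the Notch effector RBPJ. Neither word was found in the 3 promoters shown. Other forms of these sites were not searched. The DKK1 promoter shown holds CTTTGAA, which differs from CTTTGAT in its last base, and how many promoters hold CTTTGAA was not counted. WNT5A, in 1 of its 2 listed promoters, held TGGGAA once.

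The 7-base word TGGTTCT lies in the coding sequence of PSENEN and was searched in the 3′ UTRs of the members because an earlier analysis of the same libraries had found it often among lower genes. It was present in 1 of the 8 tested members, WNT4, and in 13.6% of 10250 tested protein-coding genes. Both sites are shown from GENCODE 29, with the word in capitals.
WNT4 3′ UTR (chr1:22118783-22118809, minus strand): gcctcctcctTGGTTCTtgtacccaaa
PSENEN coding sequence (chr19:35746453-35746479, plus strand): caacatcttcTGGTTCTtccgagaggc
WNT7A, FZD7 and DKK1 do not hold the word there. The word was chosen from these same libraries, so its presence in a lower member is a description only. Its part in the WNT4 level was not tested.

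The rest of the pathway was described from 9 lists of 99 genes, of which 72 had a value and 55 were tested. In limma 0 of the 55 passed an adjusted p of 0.05 (smallest 0.0746). At an unadjusted p of 0.05, 2 were higher and 6 lower, beside 4.49% and 8.49% of all genes. Groups did not overlap for 7 genes in the lower direction (12.7% of the 55) and 4 in the higher (7.27%), beside the 13.7% and 8.21% of all genes. The median difference was -0.07. With assembled transcripts added, 60 genes were tested and 0 passed in limma (smallest adjusted p 0.0871). At an unadjusted p of 0.05, 4 were then higher and 9 lower, beside 4.64% and 9.72% of all genes. By that measure groups did not overlap for 11 genes in the lower direction (18.3%) and 4 in the higher (6.67%), beside 14.3% and 7.84% of all genes, and the median difference was -0.05. The 4 tested ligands outside the members had a median of 0.01 by named transcripts and of -0.32 with assembled transcripts added, where 3 of 4 were negative. The most abundant were WNT9A and WNT2B. WNT9A was at 6.12, 2.22 and 1.49 against 1.57, 1.71 and 10.9 TPM, with means of 3.28 and 4.74 TPM. Its higher mismatch siRNA mean came from mismatch siRNA library 3. With assembled transcripts added, WNT9A was at 6.41 against 8.25 TPM. WNT2B was at 3.17 against 2.70 TPM. WLS, which carries Wnt ligands to the cell surface, was at 46.4 ± 9.63 against 49.0 ± 2.27 TPM (SD, n = 3), and PORCN, which adds their lipid, at 5.51 against 6.64 TPM. By the measure with assembled transcripts, PORCN was at 5.91 ± 0.627 against 8.70 ± 1.51 TPM (SD, n = 3; difference -0.48, limma adjusted p = 0.265), with groups apart.

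Among 9 tested receptors and coreceptors, 3 had a positive and 6 a negative difference (median -0.09). The coreceptors PTK7 and RYK were the most abundant, at 46.3 against 50.1 TPM and at 46.8 ± 7.28 against 32.1 ± 4.94 TPM (RYK difference 0.53, limma adjusted p = 0.279). RYK was higher with groups apart by either measure. In the R-spondin axis LGR4 was at 36.5 against 31.5 TPM and the ligase ZNRF3 at 3.37 against 3.66 TPM. LGR4 was also higher with groups apart by either measure. Other secreted antagonists and their receptors were led by KREMEN1, a coreceptor of Dickkopf proteins, at 12.1 ± 1.76 against 16.5 ± 3.15 TPM (difference -0.42, limma adjusted p = 0.418), and at 19.6 ± 2.29 against 20.5 ± 7.53 TPM with assembled transcripts added, while SFRP1 was at 1.71 against 1.38 TPM. β-catenin and the genes of its destruction complex had 6 of 12 positive by named transcripts (median -0.01) and 5 of 12 with assembled transcripts added (median -0.05). CTNNB1 was at 97.6 ± 1.72 against 107.9 ± 13.1 TPM and the kinase gene CSNK1A1 at 86.8 against 86.7 TPM. Counting assembled transcripts too, CTNNB1 was at 97.6 ± 1.72 against 116.5 ± 8.92 TPM (SD, n = 3; difference -0.25, limma adjusted p = 0.299), with groups apart. Of 8 tested TCF factors and cofactors 4 were positive, with TLE3 at 26.0 against 29.9 TPM. BCL9L was at 7.48, 44.6 and 38.7 against 35.5, 36.8 and 36.7 TPM. Its lower mean, 30.3 against 36.4 TPM, came from PSENEN siRNA library 1. With assembled transcripts added, BCL9L was at 40.8 against 41.7 TPM. By the measure with assembled transcripts, TLE3 was at 28.8 ± 1.59 against 37.4 ± 2.78 TPM (SD, n = 3; difference -0.36, limma adjusted p = 0.216), with groups apart. Among feedback and target genes the cyclin gene CCND1 was at 83.9 ± 5.12 against 135.3 ± 20.1 TPM (difference -0.67, SE 0.13, limma adjusted p = 0.122) and MYC at 50.1 ± 2.78 against 54.3 ± 7.65 TPM. CCND1 was lower with groups apart by either measure, and the groups overlapped for MYC. The small GTPases RAC1 and RHOA, which act in the planar polarity branch, were at 159.5 against 146.1 and at 108.8 against 104.2 TPM.

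**Figure D5:**
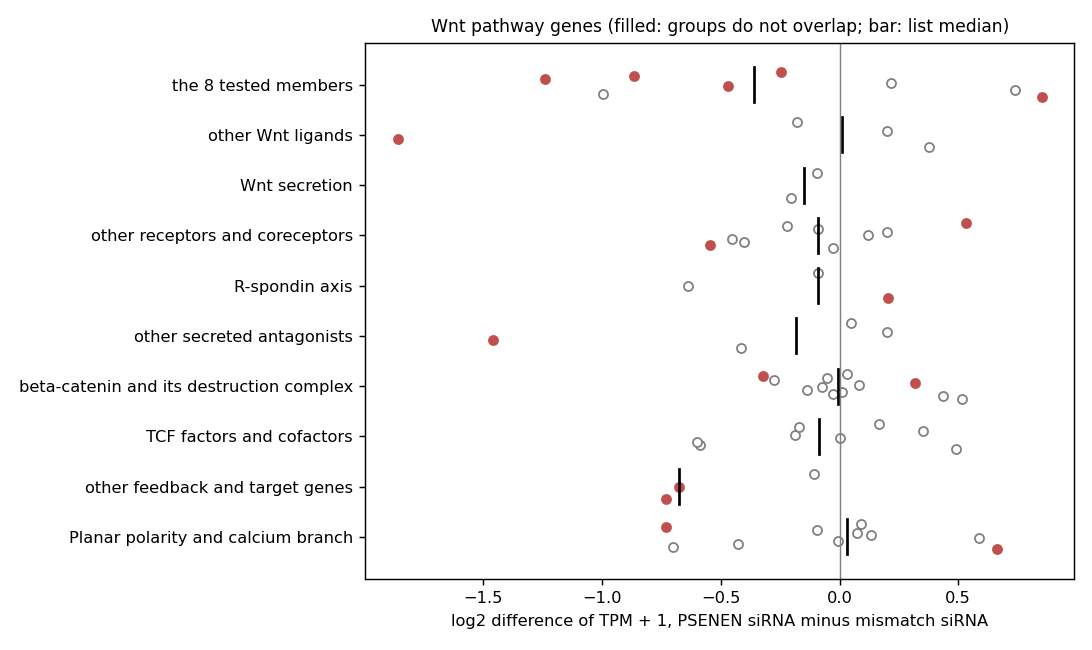
Difference in log2(TPM + 1) of the 8 tested members and of the 55 tested genes of 9 further Wnt lists, 1 point per gene, from named transcripts; filled points are genes whose groups do not overlap and the bar is the list median. The member median is -0.36, and the β-catenin and destruction complex genes have a median of -0.01.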

How the data were processed

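StringTie assemblies of 6 libraries were deposited, 3 from PSENEN siRNA and 3 from mismatch siRNA cells. Per the file headers and lines, the authors deposited TPM, FPKM and coverage for each transcript, with no read counts. The aligner, StringTie version, options and strandedness were not given in the sources used here. Bowtie 0.12.2 stands in the submitters' processing notes beside builds mm8 and mm9, of mouse, although the files are human. Of 92476 named reference transcripts, 92263 are in GENCODE 29 and 98.2% have the same GRCh38 position.

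TPM of transcripts with a gene's name was summed. Genes reaching 1 TPM in 3 or more libraries were tested on log2(TPM + 1) by limma 3.58.1 (R 4.3.3), its prior variance following intensity, group as the only term, and called at an adjusted p under 0.05. Single values used exact permutation tests. Exon coverage was multiplied by the TPM per unit of coverage of its transcript. The steps were tested on simulated data. The members and lists were chosen with earlier results of these data known. Named genes are the members, PSENEN, per list the genes that passed or else the 2 most abundant tested, and the 2 most abundant of each marker list. Alternatives were other pseudocounts, filters, scalings, no trend, a replicate block, assembled transcripts added, assembled bases, and each library left out. Python 3.11.15, pandas 2.3.3 and SciPy 1.17.1 were used.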

Additional observations from a re-analysis of the deposited data

How the results depend on the processing

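No member passed under any of the 17 alternatives, and the sign of WNT4, WNT7A, WNT7B, FZD7, DKK1 and DKK3 held in each alternative that tested them (FZD7 is below a minimum of 5 TPM). WNT4 ranged from -1.43 to -0.87, WNT7A from -0.99 to -0.56, FZD7 from -0.58 to -0.26, DKK3 from -1.62 to -0.32 and DKK1 from 0.72 to 1.02, with adjusted p of at least 0.0741, 0.153, 0.223, 0.421 and 0.132. FZD6 reversed with assembled transcripts added (-0.23), which gives mismatch siRNA library 2 its unnamed transcript. WNT10A ranged from -0.028 to 0.34 over the fits without 1 library and reversed without mismatch siRNA library 1. The number of members whose groups do not overlap was 5 in the main fit and 4 with assembled transcripts added. It was 5 to 7 without 1 library. Groups that are apart stay apart when a library is left out, so that count could not fall among members still tested. The share of all genes without overlap was not counted in those fits. Leading transcript shares without overlap numbered 0 with assembled transcripts and 1 to 2 without 1 library, against 1. Other pathway genes called numbered 2 in assembled bases (VANGL1 and CAMK2D) and 0 otherwise. Assembled bases also called the most genes of any setting, 94 of 15647, against 64 in the main fit. Over all genes 64 were called, 20 higher and 44 lower; 28 with a pseudocount of 0.1 TPM and 7 to 16 without 1 library. The split turned to more higher than lower without mismatch siRNA library 1 (7 and 3), 2 (9 and 4) or 3 (7 and 2). With FPKM the split was 23 higher and 27 lower, and with median-of-ratios scaling 21 and 28. Replicate numbers were not shown to pair libraries (correlation of deviations -0.0489, 6.51e-05 and -0.0142 for numbers 1 to 3), and with them as a replicate block 1 gene was called. PSENEN kept its sign throughout and passed in 7 of 17 alternatives. The files give no counts, so no counting intervals are given, and WNT5A is too low for a comparison.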

Other observations

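A further 5 genes of the wider Wnt lists are given here, named after their values were seen. VANGL1, a planar polarity gene, was at 13.6, 13.5 and 15.3 TPM against 25.7, 23.7 and 23.15 TPM (difference -0.73, limma adjusted p = 0.0746). CAMK2D, a calcium-activated kinase gene, was at 6.44, 5.56 and 5.69 against 3.96, 2.95 and 3.21 TPM (0.66, limma adjusted p = 0.168). In assembled bases both passed, at -0.68 and 1.07 (limma adjusted p = 0.0427 and 0.0459). Over all genes, 94 of 15647 passed in assembled bases, 36 higher and 58 lower. The ligand gene WNT11 was listed at 0 in PSENEN siRNA libraries 1 and 2 and was at 0.663 TPM in library 3, against 3.86, 4.12 and 2.20 TPM. With assembled transcripts it was at 1.84, 1.07 and 0.663 against 3.86, 4.12 and 3.71 TPM (limma adjusted p = 0.103). KREMEN2, which like KREMEN1 encodes a receptor of Dickkopf proteins, was at 0.977, 0.636 and 0.323 against 3.93, 1.49 and 4.20 TPM by the same measure (limma adjusted p = 0.169). The receptor gene FZD2, related to FZD7, was at 2.84, 2.44 and 2.72 against 4.24, 4.34 and 4.47 TPM (difference -0.55, limma adjusted p = 0.200).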
